A study of Gossypium hirsutum with 18 samples.

Results

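Unannotated transcripts are regions of the upland cotton (Gossypium hirsutum) genome that the deposited tables list under a transcript identifier of their own in place of that of an annotated gene. By convention such identifiers mark transcripts assembled from the reads outside the annotated gene models. The way they were found is not given in the sources used here. The members described here are all rows with such an identifier in the deposited tables of genes that differed between ovules of Xu142fl and of Xu142. There were 1261 of them among 11153 listed genes and transcripts, beside 9892 annotated genes. Xu142fl is the fuzzless-lintless mutant of the cotton line Xu142, which forms both long lint and short fuzz fibers. Ovules of Xu142fl and of Xu142 were compared at -1, 0 and 1 DPA (days post anthesis, where 0 is the day the flower opens), with 3 RNA-seq libraries for each of the 6 groups and no treatment in any of them. The labels do not say which loci differ between the lines, nor whether libraries came from separate plants, so p-values measure only the spread between these libraries, which may be technical. Each transcript is named here by its chromosome and first base in the coordinates of the deposited tables. In whole ovules, fewer cells of a type and less RNA per cell cannot be told apart.

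Each cotton fiber is a single cell of the ovule's outer epidermis, and fiber cells begin to protrude around the day of flowering. Upland cotton is an allotetraploid: its chromosomes fall into an A and a D subgenome inherited from different ancestors, so most genes have a partner in the other subgenome. Transcripts outside gene models can be genes that an annotation missed, long noncoding RNAs, extensions of neighbouring genes, or copies of mobile elements. Retrotransposons, which copy themselves through RNA with a reverse transcriptase, make up much of the cotton genome and are usually kept silent by chromatin marks. The title of the series concerns H3K27me3, a histone mark of silenced genes, in fiber initiation.

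Each table listed only the genes that the authors had called, so every member had already passed their test on that day, and its difference is given here as a description. Of the 1261 transcripts, 477 carried a Pfam protein domain in the deposited annotation and 784 (62.2%) carried none. By position, 673 lay on A chromosomes, 554 on D chromosomes and 34 on unplaced contigs, and all 26 chromosomes held at least 1. Their lengths ran from 211 to 10658 bases, with a median of 1155 bases. Position, length and domains were the same for all 1261 in every table that listed them.

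The deposited library values are reads divided by 1 factor per library, called normalised reads here. Whole reads could be recovered from them, and over the listed genes these summed to between 130502 and 6388114 per library. Unannotated transcripts held 19650 to 49127 reads per library at -1 DPA, 22244 to 38822 at 0 DPA and 110939 to 210053 at 1 DPA. Among the listed genes, markers of fiber initials (expansin-A4, expansin-A8, protein E6, HDG11 and PDF2 by description) numbered 1 higher and 4 lower in Xu142fl at -1 DPA, 0 and 8 at 0 DPA, and 2 and 8 at 1 DPA. Photosynthesis genes numbered 0 higher and 9 lower at -1 DPA, 0 and 9 at 0 DPA, and 13 and 24 at 1 DPA. Pollen terms matched 6 listed genes and seed storage terms 4 at 1 DPA, all lower in Xu142fl. A list of called genes shows no marker that did not differ, and the part of these cell types in the results below was not tested.

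Certain libraries stood apart from the others of their group. At -1 DPA, Xu142fl replicate 3 had the highest Xu142fl value for 55 of the 74 unannotated transcripts that were lower in Xu142fl. At 0 DPA, Xu142 replicate 2 had no read for 71 of the 153 that were higher in Xu142fl, whereas Xu142 replicates 1 and 3 had none for 9 and 23. An edgeR refit of the recovered reads (adjusted p under 0.05) called 100%, 83.7% and 93.9% of all listed genes at -1, 0 and 1 DPA. Of the unannotated transcripts it called 188 higher and 74 lower at -1 DPA, both with all libraries and without Xu142fl replicate 3. The authors' list of that day ended at an adjusted p of 4.93e-05, so a limit of 0.05 left little room for loss. At 0 DPA the refit called 145 higher and 196 lower with all libraries, and 102 higher and 152 lower without Xu142 replicate 2. At 1 DPA it called 515 higher and 590 lower with all libraries, and 378 higher and 506 lower without Xu142fl replicate 3, the library with the most reads in its group.

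Unannotated transcripts made up a larger share of the listed genes at -1 and 0 DPA than at 1 DPA. The authors' lists end at unlike levels, with a highest adjusted p of 4.93e-05, 0.0131 and 0.0497 at -1, 0 and 1 DPA. Shares, sizes of ratio and counts without a read, here and below, are therefore not like for like across days. At -1 DPA 262 unannotated transcripts were listed, 188 higher and 74 lower in Xu142fl, and they were 30.0% of the 872 listed genes. At 0 DPA 359 were listed, 153 higher and 206 lower, which was 26.3% of 1366. At 1 DPA 1194 were listed, 572 higher and 622 lower, which was 11.1% of 10793. As background, the authors called 1.50% of all 58161 genes tested at -1 DPA, 2.38% of 57326 at 0 DPA and 17.6% of 61474 at 1 DPA. Because the number of unannotated transcripts tested is not known, their own share called could not be set against this.

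The split between higher and lower was set beside that of the annotated genes in the same tables, as a description. Higher in Xu142fl were 71.8%, 42.6% and 47.9% of the unannotated transcripts at -1, 0 and 1 DPA, and 47.7%, 34.7% and 30.6% of the annotated genes. Over all listed genes the share higher was 54.9%, 36.7% and 32.5%. Of all genes tested, 0.824%, 0.876% and 5.70% were called higher and 0.676%, 1.51% and 11.9% lower. The split depended on the library factors. With TMM or DESeq2 factors taken from the listed genes in place of the authors' factors, the median log2 ratio of all listed genes moved by -0.17 and -1.10 at -1 DPA, by 1.10 and 1.55 at 0 DPA, and by 1.20 and 1.24 at 1 DPA. At -1 DPA the share higher among edgeR calls was then 71.8% (TMM) and 68.9% (DESeq2) for unannotated transcripts, and 47.6% and 29.7% for annotated genes. At 0 DPA it was 58.4% and 68.0% for unannotated transcripts, and 64.2% and 77.6% for annotated genes, so the order of the classes turned on that day. The shares at 1 DPA were 67.3% and 68.0% for unannotated transcripts, and 57.9% and 58.9% for annotated genes. Ratios of unannotated transcripts between the genotypes were also larger. The median size of the log2 ratio was 4.63, 4.11 and 2.31 for unannotated transcripts at -1, 0 and 1 DPA, and 1.97, 2.32 and 1.62 for annotated genes. The levels themselves were lower per length: in the genotype where each was higher, the median was 83.1, 57.7 and 51.8 normalised reads per 1000 bases for unannotated transcripts, and 144, 93.8 and 178 for annotated genes. A transcript with few reads needs a larger ratio to be called and more readily has no read. The listing may thus add to the larger ratios here and to the absences below, which was not tested. A ratio here is Xu142fl over Xu142 and is taken from the group means, so that a positive log2 ratio means higher in Xu142fl.

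**Figure D1:**
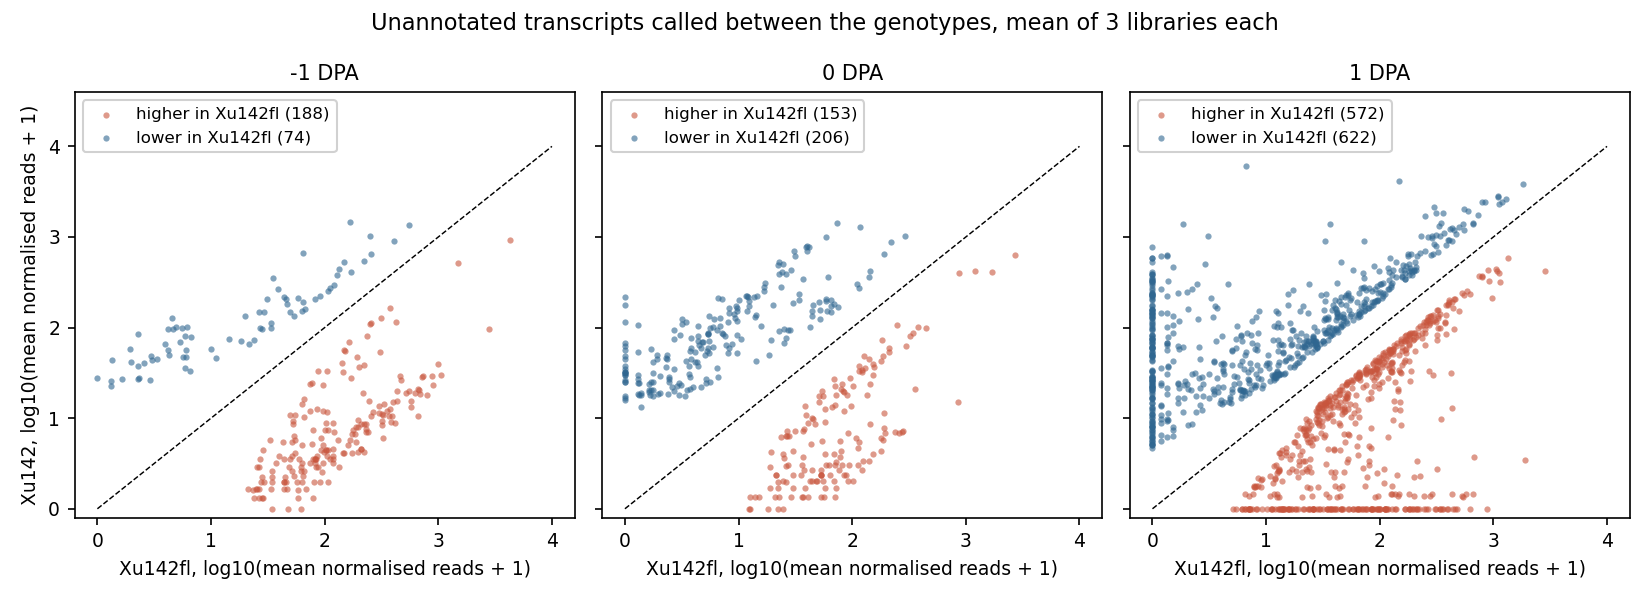
Mean of 3 libraries in Xu142fl (horizontal) and in Xu142 (vertical) of each listed unannotated transcript, as log10(normalised reads + 1), by day; the dashed line marks equal means. At -1 and 0 DPA most transcripts higher in Xu142fl had low but nonzero means in Xu142, while at 1 DPA 132 points lay at 0 in Xu142 and 144 at 0 in Xu142fl.

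Summed over the listed unannotated transcripts with the authors' factors, the level was higher in Xu142fl than in Xu142 at -1 DPA and lower at 0 and 1 DPA, and the order at 0 and 1 DPA turned with factors taken from the listed genes. At -1 DPA the 262 transcripts summed to 47180 ± 5420 normalised reads per library in Xu142fl and 18939 ± 93.1 in Xu142 (SD, n = 3 each). At 0 DPA the 359 summed to 24378 ± 2092 in Xu142fl and 34830 ± 2480 in Xu142. At 1 DPA the 1194 summed to 116919 ± 4871 in Xu142fl and 170230 ± 10325 in Xu142. The log2 ratio of the sums was 1.32, -0.51 and -0.54 at -1, 0 and 1 DPA with the authors' factors, 1.13, 0.60 and 0.66 with TMM factors, and 0.20, 1.04 and 0.70 with DESeq2 factors. The 6 libraries of each day did not overlap between the genotypes in this sum, which follows from choosing called transcripts. The library values of the genotypes did not overlap for 262 of 262 single transcripts at -1 DPA, 359 of 359 at 0 DPA and 1168 of 1194 at 1 DPA, against 100%, 99.4% and 97.6% of all listed genes.

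Complete absence of reads from a genotype was mostly seen at 1 DPA. On that day 132 unannotated transcripts had no read in any of the 3 Xu142 libraries, which was 23.1% of those higher in Xu142fl. Another 144 had no read in Xu142fl, which was 23.2% of those lower there. For listed annotated genes the same shares were 4.23% and 3.47%. Over all listed genes of 1 DPA, 2.37% had no read in Xu142 and 3.47% none in Xu142fl. At -1 DPA only 3 unannotated transcripts had no read in Xu142 and 1 had none in Xu142fl, beside 1.15% and 0.229% of all listed genes. At 0 DPA there were 5 and 22, beside 1.10% and 2.34%. No read in 3 libraries allows up to 3 reads over the group, which at 1 DPA is a mean of 1.17 normalised reads in Xu142 and 0.803 in Xu142fl. These floors, and the counting intervals below, cover counting error only.

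Most of the transcripts without a read at 1 DPA were low in the other genotype, and some were abundant there. The 132 without a read in Xu142 had means of 4.14 to 884 normalised reads in Xu142fl, with a median of 44.6, and 38 of them reached 100. The 144 without a read in Xu142fl had means of 3.72 to 767 in Xu142, with a median of 47.8, and 47 reached 100. A Pfam domain was missing for 112 of the 132 and 120 of the 144, against 61.8% of all unannotated transcripts listed at 1 DPA. Of the 132, 95 were also listed at -1 DPA and only 2 of these had no read in Xu142 there, with a median of 9 reads over its 3 libraries. Of the same 132, 83 were listed at 0 DPA and 5 of these had no read in Xu142. Of the 144 without a read in Xu142fl at 1 DPA, 19 were listed at -1 DPA and 82 at 0 DPA, and 1 had no read in Xu142fl on each of those days. Absence at 1 DPA therefore seldom went with absence on the earlier days among the transcripts listed there.

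The direction of an unannotated transcript was nearly always the same on each day it was listed. Of the 262 listed at -1 DPA, 195 were also listed at 0 DPA (74.4% of the 262 and 54.3% of the 359), all with the same direction. Of the 262, 242 were also listed at 1 DPA (92.4% of the 262 and 20.3% of the 1194), 240 with the same direction. Of the 359 listed at 0 DPA, 307 were also listed at 1 DPA (85.5% of the 359 and 25.7% of the 1194), 306 with the same direction. For annotated genes, 364 of the 610 at -1 DPA were also listed at 0 DPA (59.7%), 363 of them with the same direction. At 1 DPA 458 of the 610 were listed (75.1%), 432 with the same direction. Of the 1007 annotated genes at 0 DPA, 838 were also listed at 1 DPA (83.2%), 811 with the same direction. Listed on all 3 days were 190 unannotated transcripts. On every day 134 of these were higher in Xu142fl, 55 were lower there, and 1 changed direction.

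The 8 most abundant of these 190 illustrate how the difference developed, and they include 3 transcripts with reverse transcriptase domains. D02:3454102, of 1312 bases (ending at base 3455485, plus strand) with no Pfam domain, had 4697, 4574 and 3455 normalised reads in Xu142fl and 915, 907 and 938 in Xu142 at -1 DPA. Its values at 0 DPA were 2691, 2393 and 3010 in Xu142fl and 725, 603 and 575 in Xu142. Those at 1 DPA were 3060, 2854 and 2653 in Xu142fl and 512, 342 and 404 in Xu142. Every Xu142fl library lay above every Xu142 library, and the ratio was 4.61-fold, 4.25-fold and 6.81-fold at -1, 0 and 1 DPA (log2 ratios 2.21 ± 0.14, 2.09 ± 0.14 and 2.77 ± 0.18, SE; edgeR refit, adjusted p = 3.3e-07, 0.0014 and 1.6e-05).

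D03:5047744, a 1640-base transcript (ending at base 5052919, plus strand), carried a reverse transcriptase-like domain and the zinc-binding domain found in reverse transcriptases. At -1 DPA it had 3007, 2945 and 2414 normalised reads in Xu142fl, against 90.5, 107 and 91.3 in Xu142. At 0 DPA the values were 1727, 1759 and 1657 in Xu142fl, against 413, 442 and 361 in Xu142. By these values and those of 1 DPA its level in Xu142 was highest on the day of flowering, each day having its own normalisation. At 1 DPA they were 2247, 1826 and 1588 in Xu142fl, against 1.03, 2.73 and 3.51 in Xu142, so the log2 ratio was 4.86 ± 0.13, 2.08 ± 0.09 and 9.60 ± 0.46 (SE) at -1, 0 and 1 DPA. The edgeR refit gave adjusted p = 3.7e-09, 9.9e-04 and 8.3e-07.

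A07:24177175, of 1569 bases (ending at base 24182015, minus strand), carried the same pair of domains. It had 1107, 1160 and 907 normalised reads in Xu142fl, against 28.0, 34.7 and 25.0 in Xu142 at -1 DPA. On the day of flowering it had 790, 737 and 1019 in Xu142fl, against 25.4, 0.908 and 16.5 in Xu142, whose replicate 2 stood far below the other two. At 1 DPA it had 882, 896 and 875 in Xu142fl and no read in Xu142, which makes it at least 753-fold higher in Xu142fl. A04:73166373, the third with this pair of domains and 1929 bases long, differed less: its means were 1484 ± 183, 1212 ± 119 and 979 ± 53.3 in Xu142fl at -1, 0 and 1 DPA and 515 ± 24.7, 425 ± 53.9 and 210 ± 81.4 in Xu142 (SD, n = 3 each). The ratio of A04:73166373 was 2.88-fold, 2.85-fold and 4.65-fold (edgeR refit, adjusted p = 6.4e-06, 0.0065 and 2.6e-04).

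The other 4 of these 8 were lower in Xu142fl. A08:121492005, of 1505 bases (ending at base 121495016, plus strand), encodes a GDSL-like lipase or acylhydrolase domain, found in plant esterases that act on lipids and cell walls. At -1 DPA it had 132, 114 and 140 normalised reads in Xu142fl and 376, 364 and 406 in Xu142. The values at 0 DPA were 221, 227 and 116 in Xu142fl and 739, 808 and 389 in Xu142. Those at 1 DPA were 180, 127 and 131 in Xu142fl and 3638, 4677 and 4023 in Xu142. The Xu142fl level thus stayed within 114 to 227 on all days, while in Xu142 it was far higher at 1 DPA than on the earlier days, each table having its own normalisation. The log2 ratio was -1.57 ± 0.10, -1.78 ± 0.40 and -4.82 ± 0.20 (SE; edgeR refit, adjusted p = 1.1e-05, 0.025 and 2.2e-06).

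A05:106231359, of 463 bases (ending at base 106232087, plus strand) and with no domain, was among the most abundant per length on each day. It averaged 555 ± 14.9, 293 ± 40.8 and 301 ± 29.4 normalised reads in Xu142fl at -1, 0 and 1 DPA, and 1343 ± 77.0, 1021 ± 263 and 2151 ± 136 in Xu142 (SD, n = 3 each). It was 2.42-fold, 3.49-fold and 7.14-fold higher in Xu142 (edgeR refit, adjusted p = 1.2e-05, 0.0048 and 5.5e-06). D10:11067257, of 3304 bases with no domain, averaged 166 ± 91.6, 116 ± 43.9 and 71.7 ± 6.62 in Xu142fl and 1477 ± 20.3, 1274 ± 253 and 901 ± 173 in Xu142. D13:51237903, of 3583 bases with a protein kinase domain, averaged 250 ± 74.8, 217 ± 77.3 and 178 ± 22.0 in Xu142fl and 1015 ± 64.7, 886 ± 131 and 650 ± 18.2 in Xu142. Its log2 ratio of -2.02 ± 0.26, -2.03 ± 0.32 and -1.87 ± 0.11 (SE) changed least across days among the 4. With either set of factors taken from the listed genes, A08:121492005, A05:106231359 and D13:51237903 no longer passed the edgeR refit at 0 DPA. With the DESeq2 factors D13:51237903 did not pass at 1 DPA either, nor A04:73166373 at -1 DPA.

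**Figure D2:**
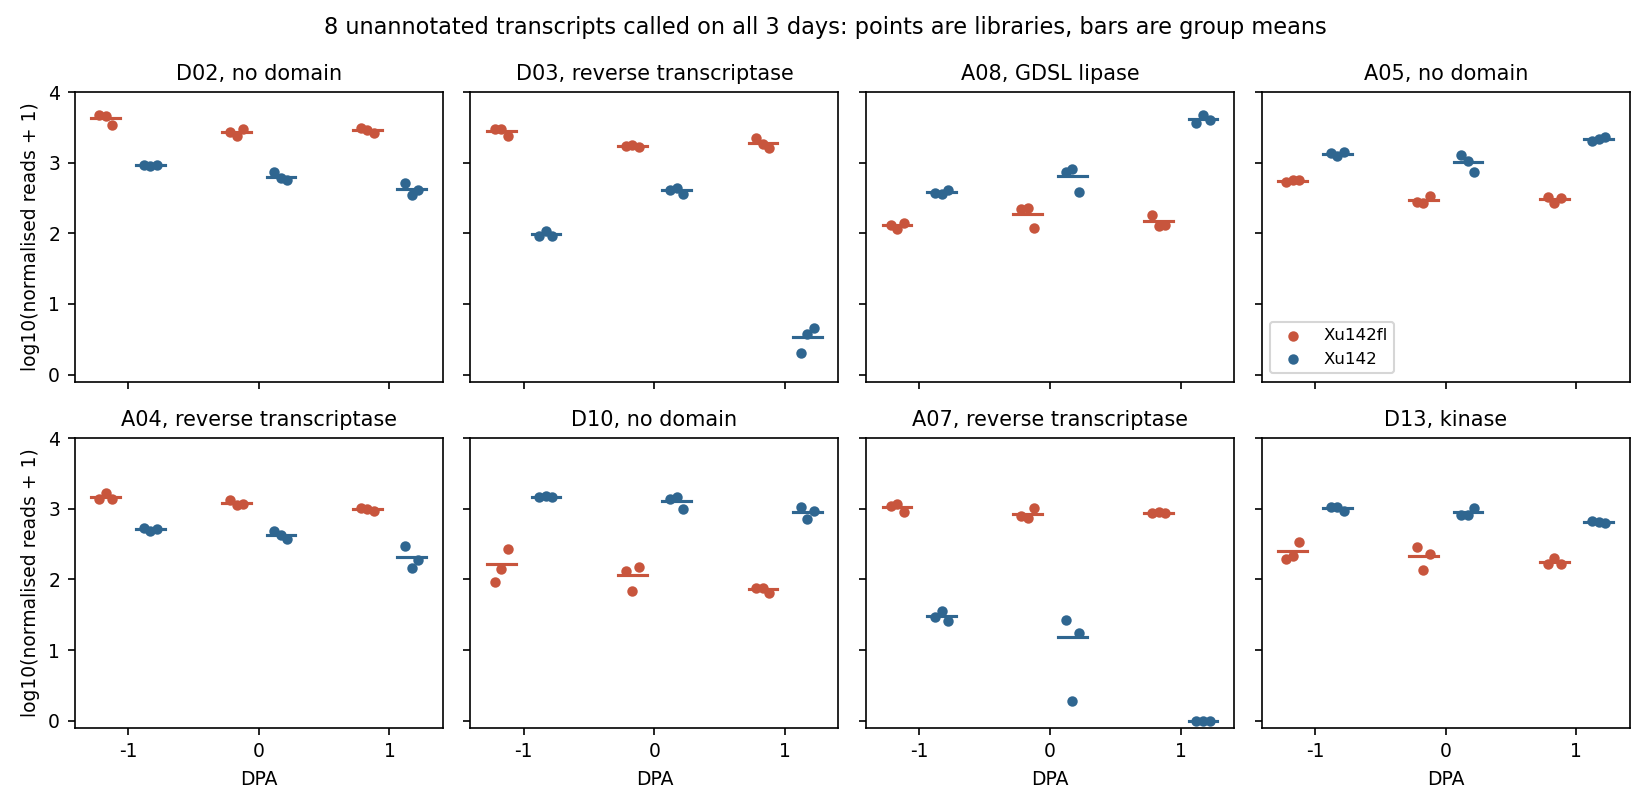
Normalised reads of the 8 most abundant unannotated transcripts listed on all 3 days, as log10(normalised reads + 1) against day; points are libraries, short bars are group means, with Xu142fl left of Xu142 on each day and each panel titled by chromosome and domain. D03:5047744 and A07:24177175 had their lowest Xu142 means, at or near 0, at 1 DPA, and A08:121492005 had its highest Xu142 values at 1 DPA. Each day has its own normalisation.

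In the Xu142 level relative to that of Xu142fl, the course seen for D03:5047744 was shared by a set of transcripts higher in Xu142fl on all 3 days. Over the 134, the Xu142 mean was a median of 3.16% of the Xu142fl mean at -1 DPA, 4.75% at 0 DPA and 0% at 1 DPA. It was 10% or more for 15 transcripts at -1 DPA, 53 at 0 DPA and 13 at 1 DPA. It was exactly 0 for 3, 3 and 77 of them. Among the 118 that were under 10% on both other days, 37 were at 10% or more at 0 DPA and 68 were under 5%, limits chosen after the values were seen.

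Both sets were under 10% on the other days by choice, and the 0 DPA mean in Xu142 divided them, so the values by library are a description. In the 37, the median share at 0 DPA was 24.2%, 21.7% and 21.3% in Xu142 replicates 1, 2 and 3. In the 68, it was 4.33%, 0% and 2.22%. At -1 DPA the medians were 3.18%, 3.68% and 3.43% in the 37 and 2.82%, 3.17% and 2.39% in the 68, and at 1 DPA they were 0% in every Xu142 library for both sets. The 37 were spread over 18 chromosomes, 22 on A and 15 on D, with a median length of 1123 bases and 4 mobile element transcripts. The 68 were spread over 26 chromosomes or contigs, 33 on A, 34 on D and 1 unplaced, with a median length of 1138 bases and 9 mobile element transcripts.

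**Figure D3:**
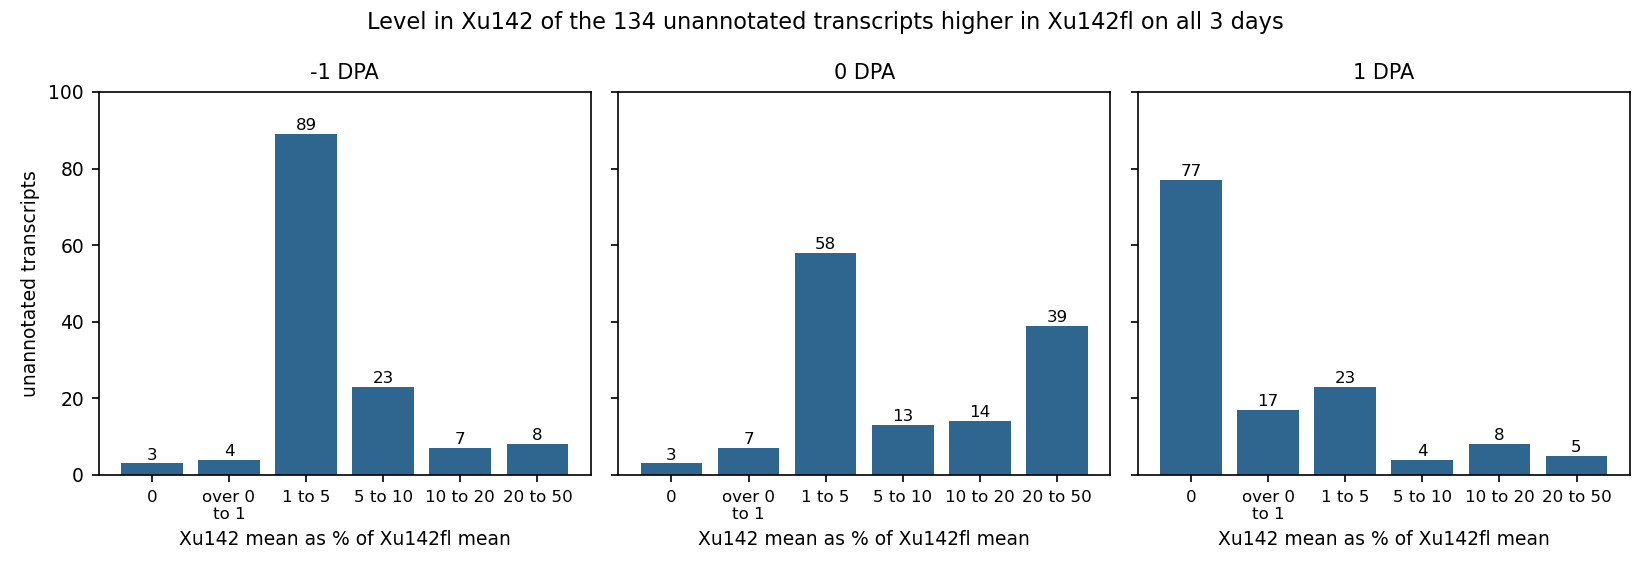
Number of unannotated transcripts (of the 134 higher in Xu142fl on all 3 days) by the Xu142 mean as a percent of the Xu142fl mean, for each day. Most transcripts lie at 1 to 5% at -1 DPA, 53 lie at 10% or more at 0 DPA, and 77 lie at 0 at 1 DPA.

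The 55 transcripts lower in Xu142fl on all 3 days had larger shares in the genotype where they were low. The Xu142fl mean was a median of 9.69%, 9.92% and 3.87% of the Xu142 mean at -1, 0 and 1 DPA, and it was exactly 0 for 1, 0 and 18 transcripts. By library, the median share at -1 DPA was 5.10%, 7.54% and 16.9% in Xu142fl replicates 1, 2 and 3. At 0 DPA it was 13.0%, 5.19% and 13.2%, and at 1 DPA 3.37%, 3.09% and 3.19%. The residual level in Xu142fl thus differed over 2-fold between libraries of 1 group on the earlier days and little at 1 DPA.

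Listed at -1 DPA alone were 15 unannotated transcripts, 4 higher and 11 lower in Xu142fl. At 0 DPA alone 47 were listed, 4 higher and 43 lower, and 21 of the 43 had no read in Xu142fl. At 1 DPA alone 835 were listed, 375 higher and 460 lower, with a median log2 ratio of 1.73 in size. Transcripts listed on 1 day alone were 5.73%, 13.1% and 69.9% of the unannotated transcripts at -1, 0 and 1 DPA. For annotated genes the same shares were 20.3%, 14.0% and 90.0%. A transcript absent from a table may have differed less there, have had too few reads or have missed the adjusted p at which that list ended. These cannot be told apart.

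Extreme ratios are given for transcripts whose higher genotype averaged 100 normalised reads or more and whose library values did not overlap between the genotypes. At -1 DPA the largest of these were in transcripts higher in Xu142fl. D06:33285486, of 1008 bases with no domain, had 128, 102 and 90.2 normalised reads in Xu142fl, against 0, 0 and 2.88 in Xu142. With 304 reads in Xu142fl and 3 in Xu142, the ratio of scaled reads was 110-fold (exact 95% counting interval 37.4 to 539). Scaled reads are the summed reads of a group divided by the sum of its library factors. A06:91276133, of 1854 bases, carries an Omp85 domain, known from proteins of bacterial, chloroplast and mitochondrial outer membranes. It had 241, 215 and 210 in Xu142fl and 1.87, 4.82 and 2.88 in Xu142, 69.6-fold higher (edgeR refit, adjusted p = 2.9e-08). D03:7333180, of 1316 bases with no domain, was 69.5-fold higher in Xu142fl. D08:55989437, of 2130 bases with reverse transcriptase domains, was 69.3-fold higher, with 633, 730 and 620 in Xu142fl and 8.40, 9.64 and 10.6 in Xu142. D12:16102059, of 1720 bases with a SAM-dependent carboxyl methyltransferase domain, the family that methylates small plant acids such as salicylate and jasmonate, was 64.3-fold higher.

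Among those lower in Xu142fl at -1 DPA, at the same minimum, 4 of the 5 largest ratios moved by over 1.5 times without 1 library. A07:93861107, of 1331 bases with no domain, had 0, 2.03 and 8.54 normalised reads in Xu142fl, against 133, 140 and 104 in Xu142. It was 35.7-fold higher in Xu142, and 124-fold without Xu142fl replicate 3. A13:104420863 was 19.4-fold higher in Xu142, and 47.7-fold without that library. D07:17185733, of 4271 bases with the gag polypeptide domain of copia retrotransposons, had 38.8, 41.7 and 111 in Xu142fl, against 643, 708 and 624 in Xu142. It was 10.3-fold higher in Xu142, and 16.4-fold without Xu142fl replicate 3. A06:16985785 was 10.2-fold higher in Xu142, and 17.5-fold without it. The Xu142fl libraries lay below the Xu142 libraries in all 4, which the choice of these transcripts required.

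At 0 DPA the 5 largest ratios among those lower in Xu142fl, at the same minimum, were in transcripts with 0 to 6 reads in Xu142fl. A02:1248499, of 1974 bases with no domain, had no read in Xu142fl and 191, 273 and 192 normalised reads in Xu142, at least 218-fold lower in Xu142fl. A05:101427056 had no read in Xu142fl and 177, 257 and 97.9 in Xu142, at least 177-fold lower. D10:62864424 had none in Xu142fl and 115, 145 and 79.4 in Xu142, at least 113-fold lower. A08:7788888, of 2075 bases with a plant transposase domain of the En/Spm family, had 0, 0.925 and 0 in Xu142fl, against 92.3, 131 and 96.9 in Xu142. With 1 read in Xu142fl and 329 in Xu142, the ratio of scaled reads was 322-fold higher in Xu142 (exact 95% counting interval 57.4 to 12756). D07:51999276 had 4.49, 0 and 1.96 in Xu142fl and 135, 129 and 106 in Xu142. It was 57.4-fold higher in Xu142, and 126-fold without Xu142fl replicate 1.

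In the other direction at 0 DPA, the 5 with the largest ratios at that minimum were 54.9-fold or more higher in Xu142fl, with a few reads in Xu142. D02:65393987, of 4362 bases with protein kinase domains, had 85.3, 115 and 163 normalised reads in Xu142fl, against 4.06, 0 and 1.03 in Xu142. It was 71.5-fold higher, and 235-fold without Xu142 replicate 1. D13:40066091 had 298 reads in Xu142fl and 3 in Xu142, a ratio of scaled reads of 101-fold (exact 95% counting interval 34.4 to 495). A06:97457058 was 58.5-fold higher, and 90.1-fold without Xu142 replicate 1. A07:24177175 was 59.6-fold higher on this day, and 97.6-fold without the same library. D03:4525030 was 54.9-fold higher. Xu142 replicate 2 had at most 0.908 normalised reads for these 5.

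At 1 DPA the largest ratios at that minimum, with a group without a read set to 3 reads, were in transcripts with 1 to 3 reads in the lower genotype. Such a setting ranks a transcript without a read below one with 1 read at the same level. Transcripts without a read may therefore have larger ratios than those given here. D04:56155211, of 1332 bases (ending at base 56156694, minus strand), carries a Myb-like DNA-binding domain, the domain of a large plant family of transcription factors that includes regulators of trichomes and cotton fibers. It had 1.00, 1.02 and 0.567 normalised reads in Xu142fl, against 2105, 884 and 1131 in Xu142. With 3 reads in Xu142fl and 3651 in Xu142, the ratio of scaled reads was 1779-fold higher in Xu142 (exact 95% counting interval 608 to 8631). The edgeR refit gave adjusted p = 4.6e-06. At 0 DPA D04:56155211 had 129, 32.4 and 53.8 in Xu142fl, against 1560, 1692 and 1059 in Xu142, a log2 ratio of -4.32 ± 0.62 (SE). Without Xu142fl replicate 1 it was -5.06. The transcript was not listed at -1 DPA.

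The others of this kind had no Pfam domain or a reverse transcriptase domain. A10:69297469, D06:60358936, A04:81484924 and D13:5253866 had no domain and 1 read each in Xu142fl. In Xu142 A10:69297469 had 680, 521 and 622 normalised reads, D06:60358936 had 646, 611 and 650, A04:81484924 had 575, 580 and 707, and D13:5253866 had 301, 232 and 259. In the other direction, D07:52395879 and D08:55989437, both with a reverse transcriptase-like domain, had 1 read each in Xu142. D07:52395879 had 578, 730 and 663 in Xu142fl, and D08:55989437 had 589, 632 and 510. D06:57223398, A07:14674409 and D06:28988296, without a domain, also had 1 read each in Xu142, with means of 534 ± 49.8, 527 ± 115 and 430 ± 49.4 in Xu142fl (SD, n = 3). For the 9 transcripts with 1 read, exact 95% counting intervals of the ratio of scaled reads were taken. Their lower bounds ran from 178-fold for D13:5253866 to 427-fold for D06:60358936.

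Among transcripts with the highest level per length, D05:2937644 and D05:52118386 were listed at 1 DPA. D05:2937644, of 1360 bases (ending at base 2939510, minus strand), encodes a Cupin domain, found in seed storage proteins and in germin-like proteins of the cell wall. It had 4.01, 7.17 and 5.67 normalised reads in Xu142fl, against 2914, 8433 and 6665 in Xu142, and was 1068-fold higher in Xu142 (log2 ratio -10.06 ± 0.46, SE; edgeR refit, adjusted p = 5.4e-06). Its Xu142 libraries themselves differed over 2-fold. D05:52118386, of 570 bases, encodes ribosomal protein L41. It had 1360, 1181 and 1333 in Xu142fl and 2513, 2505 and 2942 in Xu142, 2.06-fold higher in Xu142. Its direction turned when library factors were taken from the listed genes themselves (log2 ratio 0.157 with TMM and 0.194 with DESeq2 size factors). At 0 DPA A01:47810472, of 558 bases with no domain, had 95.4, 19.4 and 57.7 in Xu142fl and 1157, 1125 and 690 in Xu142, 17.2-fold higher in Xu142.

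Among the classes of domains named here, those of mobile elements were the most frequent, while 198 transcripts carried a domain of no named class. A mobile element a domain was carried by 169 of the 1261 transcripts (13.4%), which had a median length of 2130 bases. The classes of domains used here were drawn up after the descriptions had been read, and examples within them were chosen after their values were seen. Of the mobile element transcripts, 25 were higher and 13 lower in Xu142fl at -1 DPA, 22 and 28 at 0 DPA, and 94 and 63 at 1 DPA. The share higher was 65.8%, 44.0% and 59.9%, beside 71.8%, 42.6% and 47.9% of all unannotated transcripts. Of all listed genes 54.9%, 36.7% and 32.5% were higher. With TMM or DESeq2 factors from the listed genes, edgeR called 22 higher and 15 or 9 lower at 0 DPA, and 94 higher and 34 or 33 lower at 1 DPA. Transcripts with a reverse transcriptase-like domain, an RNase H type domain of retroelements, numbered 13 higher and 1 lower at -1 DPA, 12 and 5 at 0 DPA, and 31 and 25 at 1 DPA. With the RNA-dependent DNA polymerase domain itself there were 3 higher and 1 lower, 3 and 4, and 31 and 8. Transcripts with a plant transposase domain, from elements that move as DNA, numbered 0 higher and 2 lower at -1 DPA, 0 and 10 at 0 DPA, and 5 and 6 at 1 DPA. The shares higher of all unannotated transcripts and of all listed genes, given above, are the background for these counts too. The sources used here do not give the counting of reads that match several copies of an element, so levels of single copies are uncertain.

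Of the mobile element transcripts with the highest means, A10:69620614, of 2070 bases, had 963, 1016 and 712 normalised reads in Xu142fl and 16.8, 29.9 and 20.2 in Xu142 at -1 DPA. At 1 DPA it had 772, 612 and 638 in Xu142fl and 0, 8.19 and 0 in Xu142. D05:61130214, of 5375 bases with reverse transcriptase and endonuclease domains, lay on the other side at 1 DPA, with no read in Xu142fl and 691, 482 and 584 in Xu142. Contig00297:48121, on an unplaced contig, had 41.5, 7.40 and 16.6 in Xu142fl and 495, 529 and 547 in Xu142 at 0 DPA, 24.0-fold higher in Xu142 and 43.6-fold without Xu142fl replicate 1. Retroelement transcripts with near-absence in 1 genotype were thus found in both directions.

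Ribosomal and translation domains were nearly all on transcripts lower in Xu142fl with the authors' factors. Of 32 such transcripts at 1 DPA, 29 were lower and 3 higher in Xu142fl, with a median log2 ratio of -1.42. With TMM or DESeq2 factors from the listed genes the median was -0.22 or -0.18, with 8 or 7 called lower and 3 called higher. All 5 with a ribosomal L39 domain and all 4 with a ribosomal L41 domain were lower. The median level of the 32 was 890 normalised reads per 1000 bases, against 51.8 for all unannotated transcripts of that day. D13:58475909, with a ribosomal L39 domain, had 374, 285 and 378 in Xu142fl and 1298, 1613 and 1379 in Xu142. D08:61794552, with the guanine nucleotide exchange domain of elongation factor EF-1, had 1203, 990 and 1075 in Xu142fl and 3101, 2503 and 2758 in Xu142, and it no longer passed the refit with factors taken from the listed genes. At -1 and 0 DPA 1 transcript each carried such a domain. Of all listed genes of 1 DPA 32.5% were higher in Xu142fl.

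**Figure D4:**
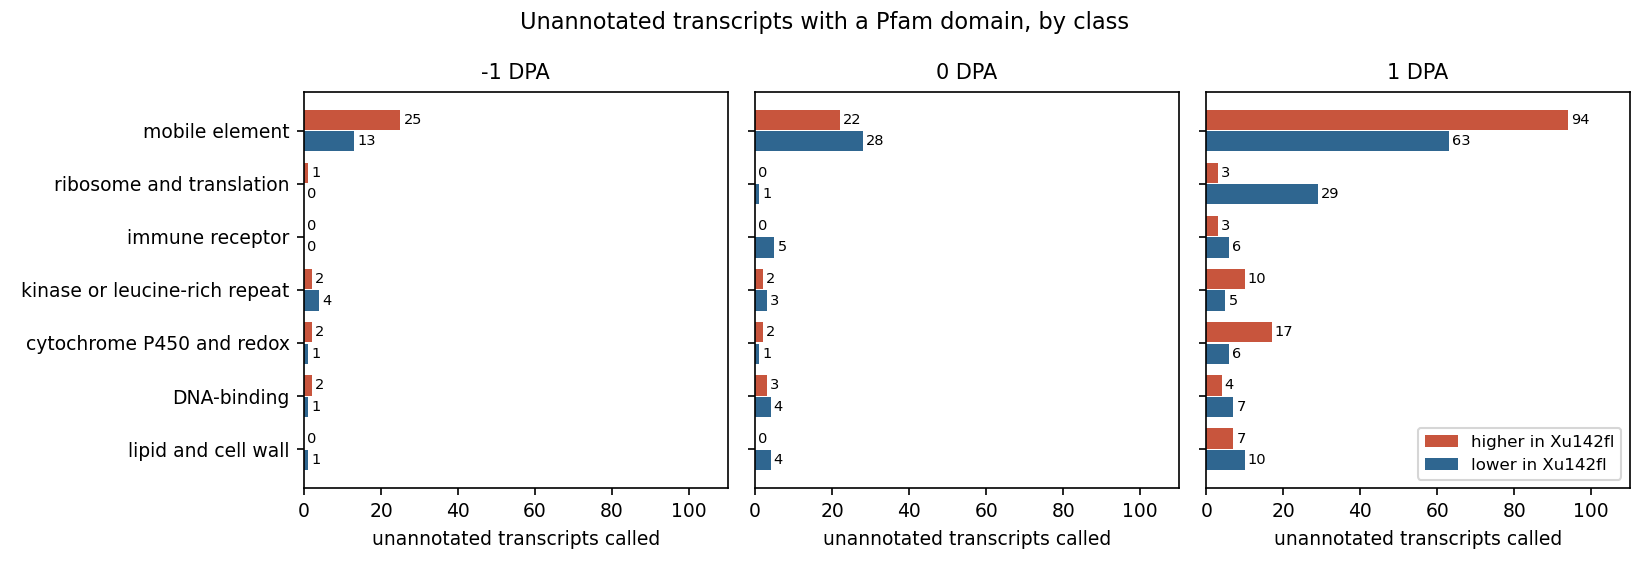
Number of listed unannotated transcripts higher and lower in Xu142fl in each class of Pfam domain, by day. Among the named classes, mobile element domains were the most frequent on every day (94 higher and 63 lower at 1 DPA), and of the ribosome and translation domains at 1 DPA only 3 were higher, against 29 lower.

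DNA-binding domains were carried by 11 transcripts, all listed at 1 DPA, 4 higher (36.4%) and 7 lower in Xu142fl. On that day 47.9% of all unannotated transcripts and 32.5% of all listed genes were higher. D10:14298629, of 2513 bases, has a homeodomain and a homeobox-associated leucine zipper, the domains of HD-Zip transcription factors. At 0 DPA it had 900, 949 and 764 normalised reads in Xu142fl and 415, 363 and 407 in Xu142. The 1 DPA libraries had 730, 728 and 791 in Xu142fl and 428, 378 and 306 in Xu142, a log2 ratio of 1.02 ± 0.14 (SE; edgeR refit, adjusted p = 0.0017). D12:36826613, with an AP2 domain (the domain of ethylene response factors and their relatives), had 303, 404 and 404 in Xu142fl and 86.9, 134 and 111 in Xu142.

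The remaining DNA-binding members named here carried Myb/SANT-like or Myb-like domains. D07:17014941, with a Myb/SANT-like domain, had 167, 141 and 122 normalised reads in Xu142fl and 4.67, 3.86 and 0.961 in Xu142 at -1 DPA, and it was also higher at 0 and 1 DPA. A06:34126146, with the same domain, had 124, 85.4 and 75.0 in Xu142fl and 1.87, 1.93 and 2.88 in Xu142 at -1 DPA, and it was higher on all 3 days. D06:9473468 had 12.4, 9.25 and 2.94 in Xu142fl and 176, 135 and 108 in Xu142 at 0 DPA, and at 1 DPA no read in Xu142fl and 140, 109 and 132 in Xu142. A08:28981552 likewise had no read in Xu142fl at 1 DPA, with 34.1, 28.7 and 31.6 in Xu142.

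Domains of NB-ARC immune receptors, the intracellular receptors of pathogen effectors in plants, were absent from the list at -1 DPA. At 0 DPA 5 such transcripts were listed, all lower in Xu142fl, beside 42.6% higher of all unannotated transcripts and 36.7% of all listed genes. With factors from the listed genes 1 of the 5 passed the refit. At 1 DPA 3 were higher (33.3%) and 6 lower, beside 47.9% higher of all unannotated transcripts and 32.5% of all listed genes. With either set of factors from the listed genes, 3 were called higher and 4 lower on that day. D11:68206204, of 4992 bases, had 16.8, 8.33 and 15.7 normalised reads in Xu142fl and 183, 156 and 331 in Xu142 at 0 DPA. At 1 DPA it had 1.00, 0 and 0.567 in Xu142fl and 130, 130 and 138 in Xu142. D05:61136700 had 0, 1.02 and 0.567 in Xu142fl and 73.4, 102 and 80.7 in Xu142 at 1 DPA. A01:4427562 was higher in Xu142fl at 1 DPA, with 218, 299 and 303 in Xu142fl and 135, 105 and 90.1 in Xu142.

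Lipid and cell wall domains were carried by 17 transcripts, 7 higher (41.2%) and 10 lower in Xu142fl at 1 DPA, when 47.9% of all unannotated transcripts and 32.5% of all listed genes were higher. D04:14257412, of 4686 bases, has a fatty acid hydroxylase domain and the WAX2 C-terminal domain of proteins that make cuticular waxes. It had 2.01, 3.07 and 1.13 normalised reads in Xu142fl and 762, 1336 and 987 in Xu142 at 1 DPA, and 12.4, 8.33 and 0.979 in Xu142fl and 140, 182 and 107 in Xu142 at 0 DPA. On the earlier of these days it was 19.8-fold higher in Xu142, and 30.7-fold without Xu142fl replicate 1. D09:28404593, of 1916 bases, has the domain of FAE1, an enzyme that elongates fatty acids. It had 2.01, 2.05 and 1.70 in Xu142fl and 503, 548 and 471 in Xu142 at 1 DPA, a log2 ratio of -8.05 ± 0.10 (SE; edgeR refit, adjusted p = 6.5e-07). D13:9234085, with the domain of glycosyl hydrolases of family 16, which cut or join cell wall glucans, was among those higher, with 966, 816 and 916 in Xu142fl and 591, 345 and 370 in Xu142.

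Redox domains, cytochrome P450 among them, were on 17 higher (73.9%) and 6 lower transcripts at 1 DPA, against 47.9% higher of all unannotated transcripts and 32.5% of all listed genes. A12:13891657, of 1136 bases with a pyridoxamine phosphate oxidase domain, the family that makes the active form of vitamin B6, had 228, 210 and 196 normalised reads in Xu142fl and no read in Xu142. At -1 DPA it had 236, 248 and 209 in Xu142fl and 5.60, 9.64 and 2.88 in Xu142. D01:7945826, of 1341 bases with an FMN reductase domain, had 33.1, 37.9 and 36.3 in Xu142fl and 1026, 1584 and 1542 in Xu142 at 1 DPA. At -1 DPA its values were closer, at 55.2, 54.9 and 75.9 in Xu142fl and 134, 194 and 126 in Xu142. Kinase or leucine-rich repeat domains were on 10 higher (66.7%) and 5 lower transcripts at 1 DPA, and of the 5 lower ones 1 (TMM) or 0 (DESeq2) passed with factors from the listed genes.

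Transcripts with no domain formed the largest group, 139 higher and 51 lower at -1 DPA, 114 and 147 at 0 DPA, and 354 and 384 at 1 DPA. The share higher was 73.2%, 43.7% and 48.0%, near the 71.8%, 42.6% and 47.9% of all unannotated transcripts. Of all listed genes it was 54.9%, 36.7% and 32.5%. With TMM or DESeq2 factors from the listed genes, edgeR called 81 or 54 lower at 0 DPA and 186 or 181 lower at 1 DPA. Over all 3 days their median length was 942 bases.

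Lengths differed with direction at 1 DPA. The median was 1308 bases for unannotated transcripts higher in Xu142fl and 1012.5 for those lower on that day, and 1533 and 1143 for annotated genes. At -1 DPA it was 1058.5 for higher and 1320.5 for lower unannotated transcripts, and 1209 and 1278 for annotated genes. At 0 DPA it was 1099 and 1196.5, and 1341 and 1082.5 for annotated genes. Unannotated transcripts without regard to direction had medians of 1125.5, 1157 and 1137.5 bases at -1, 0 and 1 DPA, and annotated genes 1237, 1152 and 1234. The order by direction at 1 DPA was thus the same in unannotated transcripts and annotated genes, and at 0 DPA the opposite.

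**Figure D5:**
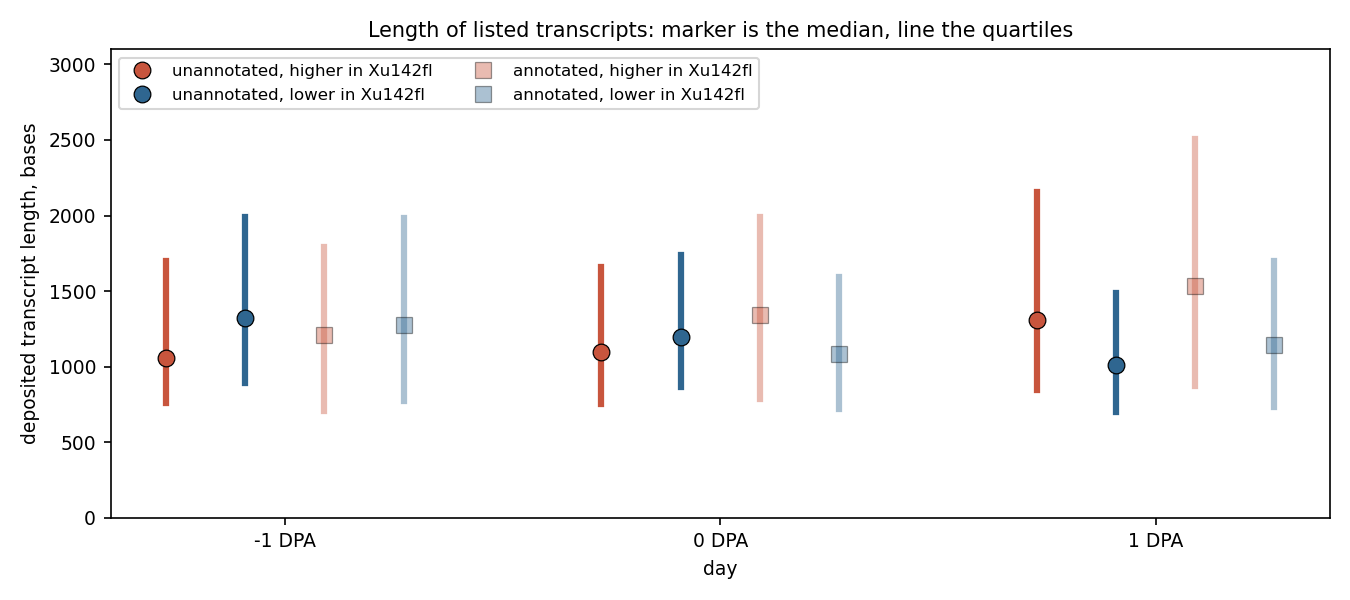
Deposited length in bases of listed unannotated transcripts (circles) and annotated genes (pale squares) by day and direction; markers are medians and lines run between the quartiles. At 1 DPA the medians of those higher in Xu142fl, 1308 and 1533 bases, lay above those of the lower ones, 1012.5 and 1143.

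By subgenome, 47.7%, 50.8% and 45.0% of the placed unannotated transcripts lay on D chromosomes at -1, 0 and 1 DPA, and 50.1%, 53.1% and 51.4% of the annotated genes. At 1 DPA 45.3% of the higher and 44.8% of the lower unannotated transcripts were on D. Chromosome A05 held the most unannotated transcripts at 1 DPA, 102 (8.54%), against 5.60% of the annotated genes.

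In windows of 1 Mb, the densest cluster at 1 DPA held 7 unannotated transcripts on A05 between bases 2000001 and 3000000, a count reached in 2 windows. A05:2334231, with a short chain dehydrogenase domain, had 255, 332 and 426 normalised reads in Xu142fl and 114, 160 and 144 in Xu142. A05:2671328, encoding the actin-binding protein profilin, had 691, 606 and 693 in Xu142fl and 1393, 1491 and 1445 in Xu142, and its direction turned with factors taken from the listed genes (log2 ratio 0.077 with TMM, 0.114 with DESeq2 size factors). A05:2152645 and A05:2155408, which lie side by side and both carry a serine incorporator domain, were 6.53-fold and 6.01-fold higher in Xu142, and neither passed the refit with factors from the listed genes. A05:2098481 and A05:2208233 were higher in Xu142fl, 2.18-fold and 3.29-fold, and A05:2778202 was 10.1-fold higher in Xu142. The window thus held 3 transcripts higher and 4 lower in Xu142fl.

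At 0 DPA the densest window, A02 between bases 1000001 and 2000000, held 4 unannotated transcripts. Besides A02:1248499, A02:1433189 with a C1 domain had no read in Xu142fl and 35.5, 35.4 and 20.6 normalised reads in Xu142. A02:1493343, also with a C1 domain, had 73.0, 68.5 and 30.3 in Xu142fl and 236, 206 and 178 in Xu142. A02:1552838, with an Omp85 domain, was higher in Xu142fl, with 447, 403 and 498 in Xu142fl against 99.4, 86.2 and 111 in Xu142. At -1 DPA 3 windows held 3 transcripts each. The most abundant, D02 between bases 65000001 and 66000000, held D02:65393987 with 64.6, 70.1 and 69.3 in Xu142fl and 0, 0.964 and 0.961 in Xu142. It also held D02:65881629 with 71.6, 74.2 and 37.0 in Xu142fl and no read in Xu142, and D02:65509602, a second kinase, with 244, 222 and 293 in Xu142fl and 631, 636 and 668 in Xu142.

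Few unannotated transcripts lay near a listed annotated gene before 1 DPA, when fewer annotated genes were listed (610 and 1007, against 9599 at 1 DPA). Within 5000 bases of one were 7 (2.67%) at -1 DPA, 16 (4.46%) at 0 DPA and 137 (11.5%) at 1 DPA, and none overlapped one. Of the annotated genes, 6.72%, 5.66% and 15.7% lay as near to another listed annotated gene. For the unannotated transcripts the direction was the same as that of the nearest such gene for 7 of 7, 14 of 16 and 96 of 137 (70.1%). Between neighbouring annotated genes at the same distance it was the same for 80.5%, 82.5% and 73.9%. Within 2000 bases at 1 DPA it was the same for 54 of 64 (84.4%), against 77.7% between annotated genes. Pairs of unannotated transcripts that overlapped each other numbered 4, 3 and 11 at -1, 0 and 1 DPA. Among them A03:103015939 was higher and A03:103025489, which lies within it on the same strand of A03, was lower in Xu142fl on all 3 days. A03:103025489 did not pass the edgeR refit at 0 DPA (adjusted p = 0.051), nor at 0 or 1 DPA with factors from the listed genes. The sources used here do not give the use of strand or the sharing of reads in counting, so values of overlapping transcripts are uncertain.

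Direction changed with the day for 2 transcripts, both on A05 with no domain. A05:19897026, of 3402 bases, had 5.87, 4.07 and 6.64 normalised reads in Xu142fl and 30.8, 34.7 and 29.8 in Xu142 at -1 DPA. At 1 DPA it had 134, 215 and 201 in Xu142fl and 2.07, 50.5 and 22.2 in Xu142, so the genotypes did not overlap on either day, in opposite order. A05:3747592, of 891 bases, had 27.0, 26.4 and 28.5 in Xu142fl and 93.3, 97.4 and 96.1 in Xu142 at -1 DPA. At 0 DPA it had 18.0, 18.5 and 15.7 in Xu142fl and 52.7, 53.5 and 41.2 in Xu142, and at 1 DPA 52.2, 47.1 and 69.2 in Xu142fl and 13.4, 30.0 and 29.2 in Xu142. At 0 DPA it did not pass the edgeR refit (adjusted p = 0.053), and its log2 ratio was 0.071 with DESeq2 factors from the listed genes.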

How the data were processed

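Ovule RNA of Xu142fl and Xu142 was sequenced on an Illumina platform, per the labels' protocols. Aligner, assembler, counter, build and use of strand: not given in the sources used here. Per the file headers, the authors deposited 1 table of called genes per day, with a normalised signal for each library, log2 fold changes, p-values and adjusted p-values. The highest adjusted p listed in the authors' deposited table was 4.93e-05 at -1 DPA, 0.0131 at 0 DPA and 0.0497 at 1 DPA, and the smallest log2 fold change 1.00 in size on each day. Every deposited signal value was a whole number of reads times 1 constant per library (100% of values, tolerance 0.001 reads), so counts were recovered from the deposited values. The deposited log2 fold change runs from Xu142 over Xu142fl. It was not used. Ratios of group means were computed instead, with a standard error from the library SD, and a group with no read was set to 3 reads over its 3 libraries. For ratios with an exact counting interval, the summed reads of each group were divided by the sum of its library factors.

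The authors' calls are the result reported. As a check, edgeR 4.0.16 (R 4.3.3) was run on the recovered counts with its quasi-likelihood test and the authors' library factors. Its p-values were adjusted by Benjamini-Hochberg for all genes that the authors had tested, a number read off the deposited raw and adjusted p-values. This refit uses the libraries that made the calls and is no independent support. Alternatives were DESeq2 1.42.0, limma 3.58.1 with a pseudocount of 1 or 0.1 before log2, factors computed on the listed genes (TMM or DESeq2), a replicate block, a mean of at least 10, an adjusted p under 0.01, and each library left out in turn. Listed genes only were available, so library depth beyond them is unknown.

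Transcripts are named by chromosome and first base. Those named were, per day and direction, the 5 with the largest ratio and a mean of at least 100; the 8 most abundant listed on all 3 days; those with opposite directions; the 3 highest per length each day; and the members of the densest 1 Mb window. The largest ratios were sought only among transcripts whose library values did not overlap between the genotypes. Others named as examples of a domain class or as overlapping were chosen after their values were seen. Members and lists were chosen with earlier results of these data known. Replicate libraries differed by more than sampling noise (chi-square per degree of freedom 1.71 to 35.3), so all 18 were kept as separate samples. No transcript sequence is shown because no genome of the files' build was used here.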

Additional observations from a re-analysis of the deposited data

Results flagged for a closer look

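A05:19897026 and A05:3747592 differed between the genotypes in opposite directions on different days. The log2 ratio of Xu142fl over Xu142 for A05:19897026 was -2.52 at -1 DPA and 2.88 at 1 DPA, and without Xu142 replicate 2, which had 50.5 normalised reads, the ratio at 1 DPA was 3.92. For A05:3747592 it was -1.81 at -1 DPA, -1.50 at 0 DPA and 1.21 at 1 DPA. Its 0 DPA value did not pass the edgeR refit (adjusted p = 0.053) and turned to 0.071 with DESeq2 factors from the listed genes. All libraries of a genotype lay on 1 side on each day, and the difference between days was not tested, since each day was normalised separately.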

How the results depend on the processing

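The counts of called unannotated transcripts at -1 DPA stayed within 1.5 times under every alternative run. At 0 DPA limma with a pseudocount of 0.1 called 59 higher and 89 lower, and factors taken from the listed genes left 109 (TMM) and 72 (DESeq2) lower. At 1 DPA such factors left 278 and 269 lower. They gave a log2 ratio of the summed transcripts of 1.13 (TMM) and 0.20 (DESeq2) at -1 DPA, 0.60 and 1.04 at 0 DPA, and 0.66 and 0.70 at 1 DPA, an alternative added after the data were seen. Such factors center a list of called genes on itself. They also reversed A05:3747592 at 0 DPA (log2 ratio 0.071 with DESeq2 factors), A05:2671328 at 1 DPA (0.077 with TMM, 0.114 with DESeq2 factors) and D05:52118386 at 1 DPA (0.157 and 0.194). Without 1 library, edgeR called 378 to 521 higher at 1 DPA, the lowest without Xu142fl replicate 3.

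The number with no read in Xu142 was 3 and 5 at -1 and 0 DPA, and with up to 1 read allowed per library it was 17 and 22, with up to 3 reads over the group 30 and 34. In Xu142fl it was 1 and 22, against 4 and 38, and 7 and 50. With a mean of at least 50 required in the other genotype, it was 1, 0 and 63 in Xu142 and 0, 6 and 70 in Xu142fl at -1, 0 and 1 DPA. Without 1 library it ran from 6 to 9 in Xu142 and 1 to 8 in Xu142fl at -1 DPA, and from 5 to 21 in Xu142 and 26 to 31 in Xu142fl at 0 DPA. A looser limit or fewer libraries can only add transcripts to these counts. Within 2000 bases of a listed annotated gene at 1 DPA 84.4% had its direction, and with a mean of at least 10 the median length at 1 DPA was 1208.5 bases.

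With the replicate number as a block, edgeR called 188 higher and 74 lower at -1 DPA, 124 and 167 at 0 DPA, and 512 and 583 at 1 DPA. Correlations of same-numbered libraries lay between 0.00598 and 0.0398 at -1 DPA, 0.0967 and 0.189 at 0 DPA, and -0.0203 and 0.0604 at 1 DPA. On no day were all 3 over 0.1, so the numbers were not taken as pairs. At -1, 0 and 1 DPA 4, 6 and 3 of 6 libraries correlated best with their own number, which at 0 DPA is a hint from the data and not the design. Of 949 alternative values of the named transcripts, 889 kept direction and threshold, 55 no longer passed the threshold and 5 were reversed. A05:3747592 at 0 DPA did not pass the edgeR refit. Causes of these changes were not tested beyond what is stated. Library depth beyond the listed genes is unknown, which limits statements on absence.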
